A study of Mus musculus with 4 samples.

Results

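The 10 genes described here encode regulators that hold the mouse oocyte in prophase arrest or release it into the meiotic divisions: Cdk1, Ccnb1, Ccnb2, Ccnb3, Wee2, Cdc25b, Mos, Fzr1, Gpr3 and Pde3a. They were chosen by name for this function, with earlier results of these data known, and each was found in the transcript table by its mouse NCBI gene ID. All 10 were listed, with 14 transcripts, among 17374 genes and 45505 transcripts, and the estimated counts and TPM values of a gene's transcripts were summed in each library. The libraries came from germinal vesicle (GV) stage oocytes of non-primed C57/Bl6/DBA2J F1 hybrid females on postnatal day 16, when most oocytes have the transcriptionally active NSN (non-surrounded nucleolus) chromatin configuration. The control group was not irradiated, and the irradiated group received 5 Gy of γ-irradiation and was collected 24 h later. Each group had 2 libraries, which the study describes as independent experiments, and 59 oocytes are given for each condition without a statement of how they were divided between the libraries. The labels name no genetic modification, and the oocytes of both groups were freed of cumulus cells, kept in medium with milrinone and stripped of the zona pellucida before lysis, the culture time of the control oocytes not being given. Milrinone inhibits phosphodiesterase 3, the product of one of the 10 genes, and the study added it to keep meiosis from resuming. Whether these oocytes would have resumed meiosis without it was not tested. Both groups are described as GV stage oocytes, so neither shows how transcripts behave once meiosis resumes.

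A GV oocyte is kept in prophase by cyclic AMP. The orphan receptor GPR3 stimulates its synthesis, and protein kinase A then acts through the kinase WEE2, which phosphorylates and inhibits CDK1, and against the phosphatase CDC25B, which removes that phosphate. PDE3A breaks cyclic AMP down and so allows CDK1 and its cyclin B partners to become active as maturation-promoting factor, while CDH1, the product of Fzr1, directs the anaphase-promoting complex (APC/C) to destroy cyclin B1 during arrest. MOS starts the MAP kinase cascade that later holds the egg at metaphase of the second division. Many transcripts of this system are made while the oocyte grows and are stored with short poly(A) tails, to be lengthened at maturation through a cytoplasmic polyadenylation element (CPE) near their 3′ end.

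The 3′ ends of the members' transcripts are shown because such an element is the feature by which stored maternal transcripts of this pathway are best known. The last 300 bases of each GENCODE vM21 transcript model were searched on the transcript strand for TTTTAT or TTTTAAT ending at most 100 bases before a polyadenylation signal, AATAAA or ATTAAA. A match was found in 4 of the 10 members, against 16.4% of the 16808 genes with a matched model. These were the 3 B-type cyclins and Wee2, and each stretch of 30 bases is printed 5′ to 3′ with the element in capitals.
Ccnb1: tgctgTTTTAATttatacatctgatatcaa
Ccnb2: atgtaTTTTATtctagtttacatcacaaac
Ccnb3: attacTTTTATgaaagaagagaaattgttt
Wee2: acataTTTTAATccagatcattgtaaataa
The Ccnb1 stretch lies in the 3′ UTR at chr13:100778769-100778798 on the minus strand of GRCm38, and 22 bases separate the element from the signal. The Ccnb2 stretch lies at chr9:70407853-70407882 on the minus strand, with 58 bases between element and signal. For Ccnb3 the position is chrX:6979695-6979724 on the minus strand, with 42 bases in between. For Wee2 it is chr6:40466763-40466792 on the plus strand, with 13 bases in between. These matches describe letters in a window, and no polyadenylation was measured. The models of Cdk1, Cdc25b, Mos, Fzr1 and Pde3a held no such pair within the window. The 3′ UTR has 126 bases in the Mos model, 227 in Ccnb2 and 234 in Ccnb3, so these windows also held coding sequence. An element of Mos beyond the end of its model would not be found. The Ccnb3 model is that of NM_183015.3, which had estimated counts in control library 2 only. The other listed Ccnb3 transcript, XM_017318448.1, held most of the gene's counts. It had no matched model, so its 3′ end was not searched. The model of Gpr3 ends at its stop codon, so its 3′ UTR could not be searched, though Gpr3 is counted among the 10.

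Promoters were taken from RefSeq on GRCm38.p6, from 250 bases before to 50 bases after an annotated start of a gene. They were found for 8 of the 10 members, Mos and Pde3a having no entry. The windows of Wee2 (chr6:40442613-40442912) and Cdc25b (chr2:131186698-131186997) lie downstream of the gene starts given below, so the sequence at those starts was not searched. The letters TTTGAA, the core of the cell cycle homology region through which many CDK1 and cyclin genes are repressed in resting cells, were searched on both strands. They occurred in 2 of the 8 promoters, those of Cdk1 and Ccnb2, and in 17.9% of all 32851 promoters. The 30 bases around the occurrence nearest to each start are printed on the gene's strand, with the 6 letters in capitals.
Cdk1: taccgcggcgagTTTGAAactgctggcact
Ccnb2: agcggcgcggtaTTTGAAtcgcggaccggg
The Cdk1 stretch lies at chr10:69352910-69352939 and the Ccnb2 stretch at chr9:70421533-70421562, both on the minus strand, and both stretches span the annotated start of the gene. Each of these promoters held 2 occurrences of TTTGAA and 3 of CCAAT, counted on both strands. At least 2 CCAAT occurred in 11.7% of all promoters, and 7.0% held both motifs at least once. The Ccnb1 promoter held 2 CCAAT and no TTTGAA within this window. These too are matches of letters, and neither binding nor repression was measured.

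Total estimated counts were 33349466 to 37232818 per library, and irradiated library 2 stood apart from the other 3. Pearson's r of log2(TPM + 1) across 10030 genes was 0.997 to 0.998 among the other 3 libraries and 0.983 to 0.986 between irradiated library 2 and each of them, a description across genes, which are not replicates. Its TMM factor, the scaling that edgeR applies to the library total, was 1.19 against 0.923 to 0.975 in the others, so its TPM values and its normalized counts stand in a different relation. All 12 oocyte markers were listed, with a summed level of 28184 to 30174 TPM, although single markers departed in irradiated library 2, from 0.330 times the mean normalized count of the other 3 libraries for Oosp1 to 2.10 times for Nobox. Of 12 granulosa and cumulus cell markers 10 were listed, with a summed level of 14.4 and 15.4 TPM in the control and 13.9 and 17.2 TPM in the irradiated libraries. Of these, Cyp19a1 had 528 to 543 counts, Kitl 172 to 222, Fshr 91 to 148 and Cyp11a1 59 to 133, while 3 had at most 3 counts in every library, and Foxl2 and Amh, which define those cells, were not listed. Blood and immune markers (1 of 6 listed) summed to 1.58 and 1.69 TPM in control and 1.86 and 3.50 TPM in irradiated libraries, and stroma and endothelium markers (2 of 6 listed) to 4.01 to 6.02 TPM over all 4. In pooled oocytes, a lower share of cells expressing a gene and less of its RNA in each cell cannot be told apart.

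The members covered a wide range of levels. Mean TPM is corrected for transcript length. By this measure Ccnb1 ranked 87th and Mos 140th of the 17374 listed genes, whereas Cdc25b and Ccnb3 ranked 7713th and 8052nd. TPM is not corrected for how well oligo(dT) selection captured each transcript, which can depend on its poly(A) tail. Tail length was not measured, so levels of different genes are compared here only as captured RNA. The order from the highest was Ccnb1, Mos, Ccnb2, Wee2, Cdk1, Fzr1, Gpr3, Pde3a, Cdc25b and Ccnb3. Each gene's range over the 4 libraries was separate from that of the next gene in this order, except for Cdc25b and Ccnb3, whose ranges overlapped. The same order held within the irradiated libraries for all 10 members, and within the control libraries for 8 of them.

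**Figure D1:**
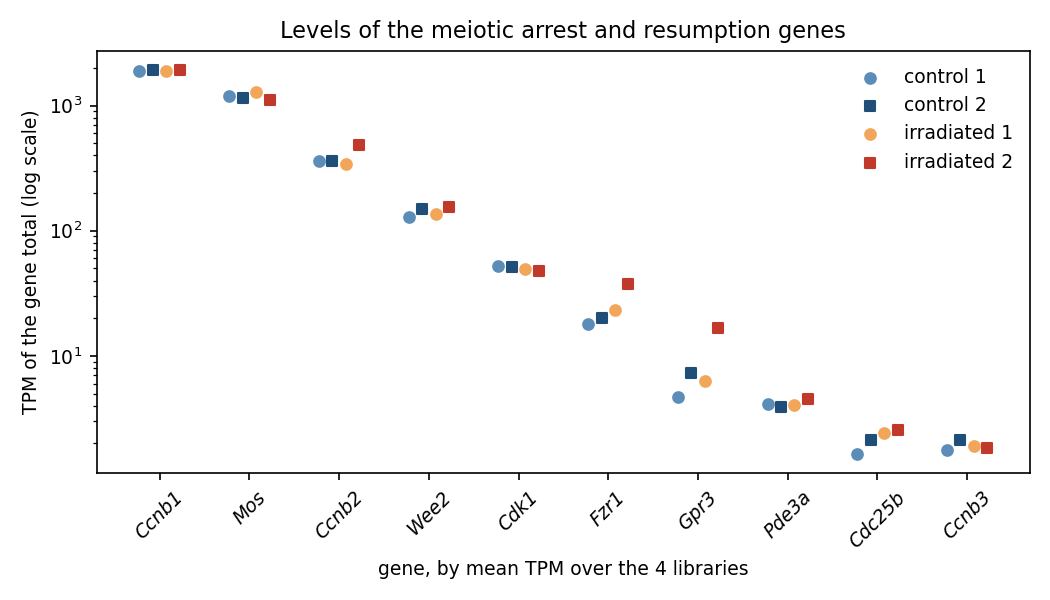
Level of each of the 10 genes in TPM (vertical axis, log scale), with one point for each of the 4 libraries and the genes ordered by their mean. The means fall from 1904 TPM for Ccnb1 to 1.90 TPM for Ccnb3, and only the last 2 genes have ranges that overlap.

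The catalytic kinase stood far below its main cyclin in TPM. Cdk1 (NCBI gene 12534, chr10:69335146-69352912, minus strand, 8 exons) stood at 52.6 and 51.2 TPM in the control libraries and at 49.5 and 48.0 TPM in the irradiated libraries. Ccnb1, the cyclin B1 gene (268697, chr13:100778739-100786486, minus strand, 9 exons), stood at 1877 and 1910 TPM in control and at 1903 and 1926 TPM in irradiated oocytes. The 4 Ccnb1 values lay within a narrow band that mixed both groups. The level of Ccnb1 is uncertain to the extent that reads can be shared with its copies. In its GENCODE transcripts, 513 stretches of 100 bases also occur in the processed pseudogene Ccnb1-ps, and smaller numbers in Gm12856, Gm8416 and Gm4870. The matched Ccnb1 model holds 2390 stretches, and the shared ones were not placed within it.

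Ccnb2, the cyclin B2 gene (12442, chr9:70407689-70421554, minus strand, 9 exons), is the partner that can sustain CDK1 activity in oocytes without cyclin B1. It stood at 364 and 359 TPM in control, 344 TPM in irradiated library 1 and 480 TPM in irradiated library 2. Ccnb3 (209091, chrX:6979652-7041635, minus strand) encodes the cyclin required for the first meiotic anaphase. Its matched model, that of NM_183015.3, has 14 exons. The 4 levels of Ccnb3 were 1.76 and 2.11 TPM in control and 1.89 and 1.85 TPM in irradiated oocytes. By mean TPM, Ccnb1 was the highest of the 3 cyclins and Ccnb3, the longest of the 3 models, the lowest.

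The enzymes that set the inhibitory phosphate on CDK1 and remove it were also unequal in TPM. Wee2, the oocyte's own CDK1-inhibiting kinase (381759, chr6:40435246-40466815, plus strand, 12 exons), stood at 128 and 148 TPM in control and 135 and 156 TPM in irradiated oocytes. Cdc25b, whose product reactivates CDK1 at resumption (12531, chr2:131186436-131198511, plus strand, 15 exons in the shorter of its models), stood at 1.64 and 2.11 TPM in control and 2.42 and 2.56 TPM in irradiated oocytes. Both Cdc25b values of irradiated oocytes exceeded both control values on the TPM scale, but the counts normalized between libraries overlapped. Levels of RNA say nothing of the amounts or activity of the proteins.

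Mos (17451, chr4:3870658-3872105, minus strand, 1 exon), a stored maternal transcript with a single coding exon, stood at 1199 and 1154 TPM in control, 1287 TPM in irradiated library 1 and 1101 TPM in irradiated library 2. Its group ranges overlapped, with the irradiated libraries at both extremes. Fzr1 (56371, chr10:81366879-81378370, minus strand, 14 exons) stood at 17.8 and 20.0 TPM in control and at 23.4 and 37.6 TPM in irradiated oocytes, with no overlap between the groups on this scale.

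On the cyclic AMP side, Gpr3 (14748, chr4:133209340-133212536, minus strand, 2 exons) stood at 4.70 and 7.23 TPM in control, 6.34 TPM in irradiated library 1 and 16.7 TPM in irradiated library 2. Only irradiated library 2 lay outside the control range. Pde3a (54611, chr6:141249269-141506862, plus strand, 16 exons), the target of milrinone, stood at 4.16 and 3.87 TPM in control and at 4.03 and 4.53 TPM in irradiated oocytes.

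The effect of irradiation was tested on gene totals with edgeR's quasi-likelihood test and Benjamini-Hochberg adjustment over 12569 genes, all 10 members being among them. Genes were called where the adjusted p was under 0.05 and the log2 fold change lay beyond 2 in either direction. No member was called, whereas 0.00796% of all genes tested (1 gene) were. At an unadjusted p under 0.05 there was 1 member, Fzr1, and 5.92% of all genes, of which those higher in irradiated oocytes, as Fzr1 was, made up 4.63% of all genes. No member was called under any of the 13 other settings tried, which included DESeq2, edgeR's exact test and limma on log2 TPM. With 2 libraries a group, an exact permutation test of a single gene cannot give a two-sided p below 0.333, and all p-values measure the spread between these 4 libraries only.

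Of the 10 members, 3 had a higher and 7 a lower estimate in irradiated oocytes. The median log2 fold change of the members was -0.14, beside 0.01 for all genes tested, whose median size of change was 0.19. The direction of 5 of the 7 lower estimates turned under other scalings. Scaling by library size alone moved the median of all genes to 0.17 and turned Ccnb2, Wee2 and Pde3a to higher, and log2(TPM + 1) moved it to 0.14 and turned Ccnb1 and Mos as well. The turned estimates lay below these medians, except that of Ccnb2 on the log2(TPM + 1) scale, which was 0.17.

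**Figure D2:**
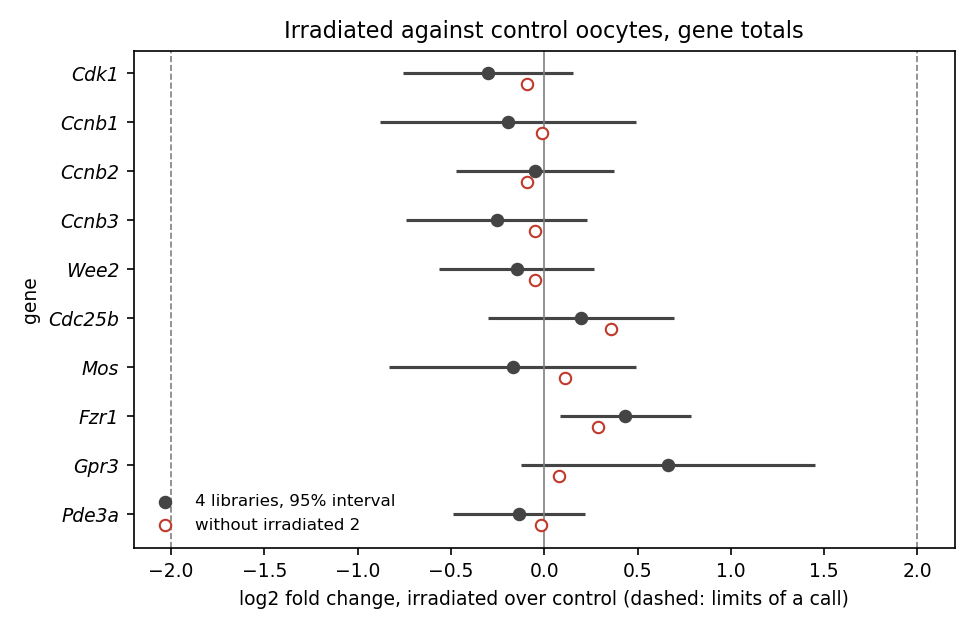
Log2 fold change of each gene, irradiated over control, from edgeR's quasi-likelihood test (filled points, bars for the 95% interval over 4 libraries) and without irradiated library 2 (open points, no interval drawn). Only the interval of Fzr1, 0.08 to 0.79, leaves out 0, and all lie inside the dashed limits of 2.

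Fzr1, which encodes the APC/C activator CDH1, had the smallest p of the members. Its normalized counts were 1033 and 1094 in control and 1296 and 1578 in irradiated oocytes, or 1063 ± 42.7 against 1437 ± 199 (mean ± SD, n = 2 each). Both irradiated libraries lay above both control libraries, an order that 22.1% of all genes tested showed in this direction. The log2 fold change was 0.44 (SE 0.148, 95% interval 0.08 to 0.79), a fold of 1.35, with an unadjusted p of 0.0221 and an adjusted p of 0.708 by edgeR's quasi-likelihood test. The unadjusted p was the 218th smallest of all genes tested. The log2 fold change of Fzr1 was 0.29 when irradiated library 2 was left out.

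Cdk1 was the member whose groups stood apart in the other direction. The normalized counts were 6144 and 5616 in control and 5513 and 4041 in irradiated oocytes, so the gap between the nearest libraries of the 2 groups was small. This lower order was shown by 19.9% of all genes tested. The log2 fold change was -0.30 (SE 0.192, 95% interval -0.76 to 0.16), with an adjusted p of 0.714, and it was -0.09 without irradiated library 2.

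Gpr3 had the largest estimate and rested on 1 library. Its normalized counts were 258 and 374 in control, 333 in irradiated library 1 and 664 in irradiated library 2. Irradiated library 1 thus lay between the controls, while irradiated library 2 had 2.06 times the mean of the other 3, and 11.2% of all genes tested reached 1.5 times that mean. The log2 fold change was 0.66 (SE 0.332, 95% interval -0.13 to 1.45; adjusted p = 0.708), with a value of 0.08 when irradiated library 2 was left out and of 1.06 when irradiated library 1 was. The GENCODE transcripts of Gpr3 share 16 stretches of 100 bases with Cd164l2 on the opposite strand. The matched Gpr3 model holds 1017 stretches, and the shared ones were not placed within it. Cd164l2 had 22922 to 27968 estimated counts against 252 to 771 for Gpr3. The sources used here do not say whether counting used strand, and the part of shared reads in the Gpr3 values was not tested.

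The 3 cyclins had estimates below 0, with intervals that include 0. Ccnb1 had normalized counts of 112179 and 107417 in control and 108724 and 83226 in irradiated oocytes. Irradiated library 1 lay within the control range and irradiated library 2 below it, and the log2 fold change of -0.19 (95% interval -0.88 to 0.49; adjusted p = 0.831) became -0.01 without irradiated library 2. Ccnb2 had 13808 and 12881 normalized counts in control against 12532 and 13223, with a log2 fold change of -0.05 (95% interval -0.47 to 0.37; adjusted p = 0.927). Ccnb2 was the member with the smallest estimate, and its irradiated libraries straddled the lower control value. Ccnb3 had 214 and 242 normalized counts in control against 220 and 163, with a log2 fold change of -0.26 (95% interval -0.74 to 0.23; adjusted p = 0.735), or -0.05 without irradiated library 2.

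For Wee2 the normalized counts were 9713 and 10556 in control and 9773 and 8539 in irradiated oocytes. The log2 fold change was -0.15 (95% interval -0.56 to 0.27; adjusted p = 0.800), and -0.05 without irradiated library 2. Its counterpart Cdc25b had 132 and 160 normalized counts in control and 187 and 149 in irradiated oocytes. Here irradiated library 1 was the highest and irradiated library 2 lay within the control range, with a log2 fold change of 0.20 (95% interval -0.30 to 0.70; adjusted p = 0.773). Without irradiated library 2 this estimate was 0.36, and without irradiated library 1 it was 0.02.

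Mos had 42407 and 38549 normalized counts in control, 43679 in irradiated library 1 and 28279 in irradiated library 2. The irradiated libraries were thus the highest and the lowest of the 4, and the log2 fold change of -0.17 (95% interval -0.83 to 0.49; adjusted p = 0.846) turned to 0.11 without irradiated library 2. Pde3a had 1239 and 1082 normalized counts in control against 1144 and 970, with a log2 fold change of -0.13 (95% interval -0.49 to 0.22; adjusted p = 0.784), or -0.02 without irradiated library 2. In the GENCODE transcripts of Pde3a, 642 stretches of 100 bases also occur in the antisense gene Gm28523, so without strand their reads cannot be told apart. The matched Pde3a model holds 12203 stretches, and the shared ones were not placed within it.

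**Figure D3:**
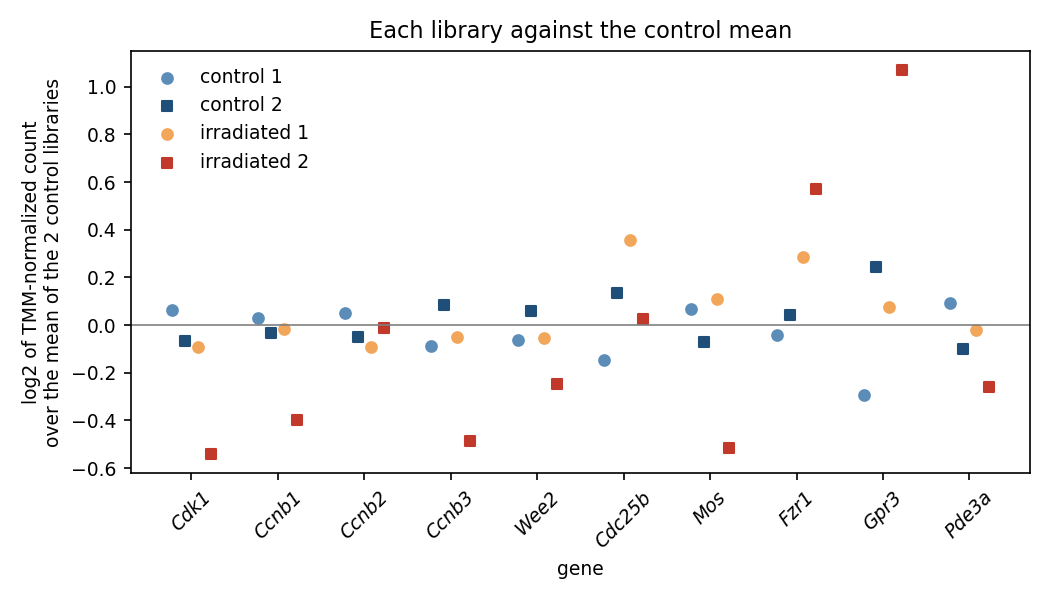
Log2 of the TMM-normalized count of each library over the mean of the 2 control libraries (vertical axis) for the 10 genes. Irradiated library 2 (red squares) is the lowest library for 6 genes and the highest for Fzr1 and Gpr3, while irradiated library 1 (orange circles) stays near the control libraries for most genes.

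Irradiated library 2 was the outermost library for most members. It was below the other 3 libraries for 6 members, Cdk1, Ccnb1, Ccnb3, Wee2, Mos and Pde3a, and for 35.4% of all genes tested. It was above the other 3 for 2 members, Fzr1 and Gpr3, and for 38.2% of all genes. Its ratio to the mean of the other 3 was 0.681 for Mos, 0.702 for Cdk1, 0.722 for Ccnb3 and 0.760 for Ccnb1, and 1.38 for Fzr1. Without irradiated library 1, which leaves irradiated library 2 alone and assumes that it varies like the control libraries, 8 members had an adjusted p of less than 0.05 by edgeR's quasi-likelihood test. Under that setting 34.3% of all genes did so, and no member passed the fold limit.

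The GC content of transcripts moved with both irradiated libraries. With the genes divided into 5 groups by the GC content of their transcript, the median log2 ratio of irradiated library 2 to the other 3 libraries was -0.12 in the group of lowest GC content and 0.24 in the group of highest. The corresponding medians of irradiated library 1 against the control libraries were -0.09 and 0.14. Spearman's rho of these ratios with GC content was 0.287 for irradiated library 2 and 0.385 for irradiated library 1. It is a description across 12280 genes measured in the same libraries. The reference of irradiated library 2 includes irradiated library 1, so these medians and rho values do not rank the libraries by their GC trend. Fzr1 at 59.9% GC and Gpr3 at 61.5% GC were the members of highest GC content and the members in which irradiated library 2 was highest. The Gpr3 model ends at its stop codon, so its GC content, also as used in the offset below, leaves out any 3′ UTR. The GC content of Ccnb3 is that of NM_183015.3, which had estimated counts in control library 2 only. Ccnb3 at 41.3%, Pde3a at 43.1% and Ccnb1 at 44.1% were the lowest. Other members did not follow this order. Mos, with 53.5% GC, had a log2 ratio of -0.55 and Cdc25b, with 54.3% GC, one of -0.10, in a group whose median was 0.11, and Cdk1, with 47.8% GC, had -0.51 in a group whose median was -0.09. With a GC offset in the fit, an alternative chosen after the data had been seen, the log2 fold change was 0.17 for Fzr1 and 0.35 for Gpr3, both with an adjusted p of 0.853 by edgeR's quasi-likelihood test. It was 0.08 for Cdc25b, -0.03 for Pde3a, -0.07 for Wee2, -0.10 for Ccnb1 and -0.14 for Ccnb3, each nearer to 0 than without the offset, and -0.27 for Mos, which was farther from it. The part of GC content in the results was not tested further.

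**Figure D4:**
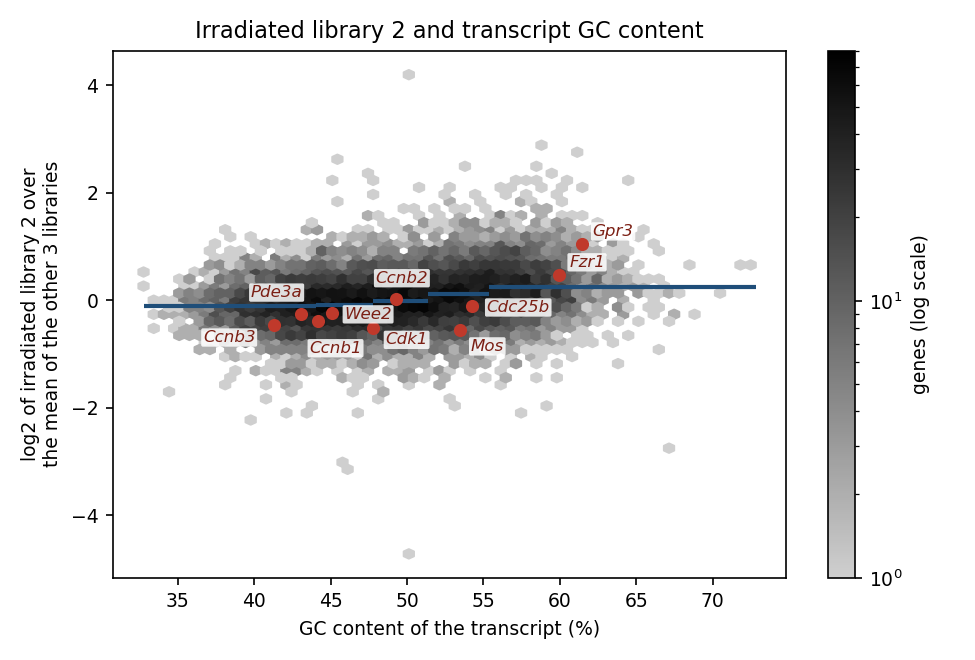
Log2 ratio of irradiated library 2 to the mean of the other 3 libraries (vertical axis) against transcript GC content (horizontal axis, %) for 12280 genes (grey, darker for more genes), with the 10 members as red points and the median of each of 5 GC groups as blue bars. The medians rise from -0.12 to 0.24, and Gpr3 and Fzr1 lie at the upper right.

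The 14 transcripts showed how the reads of each gene were divided. Cdk1, Ccnb1, Ccnb2, Mos, Fzr1, Gpr3 and Pde3a each had 1 listed transcript, while Cdc25b and Ccnb3 had 2 and Wee2 had 3. Of the 14, 12 were tested and none was called, as for all 26645 transcripts tested (0% called by edgeR's quasi-likelihood test, 248 transcripts by DESeq2 and 247 by edgeR's exact test, no member among them), with 1 of the 12 and 4.9% of all transcripts at an unadjusted p under 0.05. That transcript was the only one listed for Fzr1, with a log2 fold change of 0.45 and an adjusted p of 0.976 by edgeR's quasi-likelihood test.

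Both RefSeq transcripts of Cdc25b were listed in every library. NM_001111075.4, whose model has 15 exons and 550 codons, had 101 and 84.0 estimated counts in control and 94.8 and 92.2 in irradiated oocytes. NM_023117.4, with 16 exons and 576 codons, had 27.6 and 64.0 estimated counts in control and 81.2 and 80.8 in irradiated oocytes. The share of NM_023117.4 in the gene was 21.4% and 43.2% in control and 46.2% and 46.7% in irradiated oocytes, and control library 1 alone was low. Its log2 fold change was 0.68 (95% interval -0.97 to 2.33), with an adjusted p of 1.00 by edgeR's quasi-likelihood test. The test of transcript shares gave Cdc25b an adjusted p of 1.00, and it called 0.253% of the 6323 genes tested.

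The Wee2 transcript NM_201370.2 held at least 99.6% of the gene's estimated counts in each library, and the other 2 transcripts had at most 39.2 counts in a library. For Ccnb3, the model XM_017318448.1 held all estimated counts in 3 libraries. In control library 2 it held 64.5%, with 144 counts, and NM_183015.3 held the other 35.5%, with 79.2 counts. NM_183015.3 was listed at 0 in the other 3 libraries, so a split seen in 1 library of 4 decides the apparent level of each Ccnb3 transcript, and only the gene total was read.

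The wider pathway was described with 58 further genes in 4 groups, of which 55 were tested. Estimates were higher in irradiated oocytes for 23 and lower for 32, none was called, and 8 of the 55 had an unadjusted p under 0.05, beside 5.92% of all genes tested. The median log2 fold change was -0.03, beside 0.01 for all genes, and it was 0.05 without irradiated library 2 and 0.11 with scaling by library size alone, which moved all genes to 0.17. The groups of libraries stood apart for 15 genes in the higher direction and for 9 in the lower. These shares, as those of the 10 members, are read against the 22.1% and 19.9% of all genes tested.

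Among the genes of cyclic AMP and protein kinase A, 3 of 9 tested had higher and 6 lower estimates, with a median of -0.05. The smallest p belonged to Adcy3, an adenylyl cyclase, with 2 and 4 estimated counts in control and 11 in each irradiated library. Its log2 fold change of 1.69 (SE 0.613, adjusted p = 0.708 by edgeR's quasi-likelihood test) rests on at most 11 counts a library. Gpr12, which encodes a close relative of GPR3, did not pass the filter on low counts.

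Among the kinases, phosphatases and cofactors of CDK1, 8 of 21 tested had higher and 13 lower estimates, with a median of -0.07. Pkmyt1, which encodes the membrane-bound kinase that inhibits CDK1 alongside the WEE kinases, had the smallest p. It had 192 and 204 normalized counts in control against 268 and 394 in irradiated oocytes, with a log2 fold change of 0.75 (SE 0.217, adjusted p = 0.708), or 0.44 without irradiated library 2.

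Among the subunits and regulators of the APC/C, 8 of 19 had higher and 11 lower estimates, with a median of -0.02. Anapc2, the cullin subunit of the complex, had 219 and 223 normalized counts in control against 287 and 305 in irradiated oocytes, with a log2 fold change of 0.42 (SE 0.155, adjusted p = 0.708) that was 0.38 without irradiated library 2. Anapc2 was named for the smallest p of its group, and both irradiated libraries lay above both control libraries. This higher order was shown by 22.1% of all genes tested. Cdc27, another subunit, named after its values were seen, was the only one of the 8 pathway genes at an unadjusted p under 0.05 with a lower estimate. It had 7422 and 7307 normalized counts in control against 5996 and 4245 in irradiated oocytes, with a log2 fold change of -0.52 (SE 0.201, adjusted p = 0.708), or -0.30 without irradiated library 2.

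In the MAP kinase cascade downstream of MOS, 4 of 6 genes tested had higher and 2 lower estimates, with a median of 0.12. Rps6ka1, a ribosomal S6 kinase activated by MAP kinase, had 120 and 114 normalized counts in control against 162 and 188 in irradiated oocytes. Its log2 fold change was 0.58 (SE 0.190, adjusted p = 0.708), and 0.47 without irradiated library 2.

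**Figure D5:**
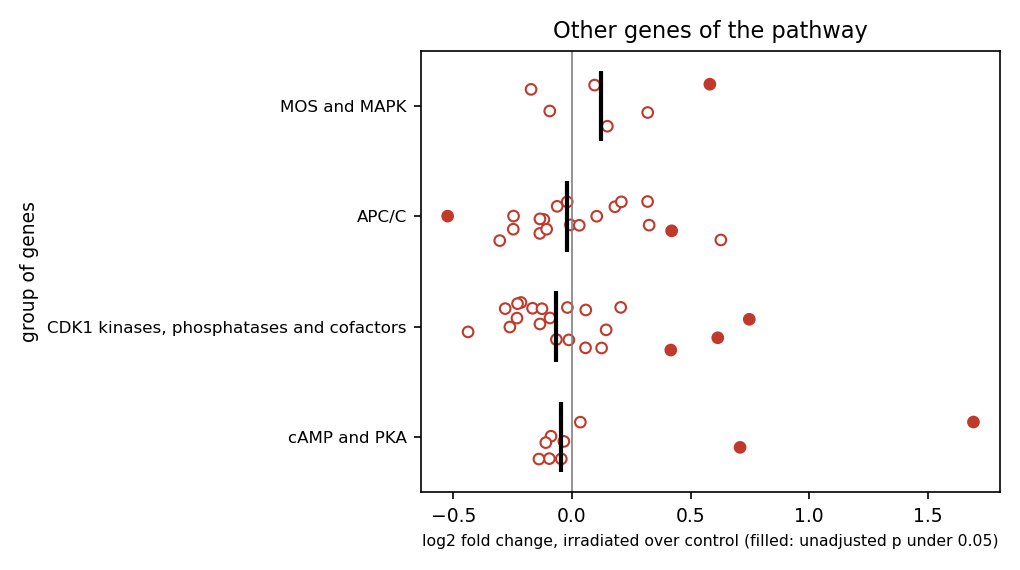
Log2 fold change, irradiated over control, of the 55 further pathway genes tested (horizontal axis), by group, with filled points where the unadjusted p was under 0.05 and black bars for the group medians. The medians lie between -0.07 and 0.12, and the point farthest to the right is Adcy3 at 1.69.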

How the data were processed

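Reads from oligo(dT)-selected RNA, paired-end and of 100 bp, were quality-trimmed and aligned to GRCm38 with Bowtie2 by the authors. The submitters' processing notes also name HISAT2, RSEM and mm10, without versions. The authors estimated a read count for every RefSeq transcript in each library, deposited as estimated counts that are not scaled for depth. The deposited TPM values were scaled by the authors to a common total with a correction for length. Another 10 columns (4 FPKM, 6 averages) were left out. Whether counting used strand is not given in the sources used here. No transcript was listed at 0 in all 4 libraries, so the table holds only transcripts with reads.

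Libraries were grouped by condition and replicate number in the sample titles. Counts were summed per gene and rounded. The quasi-likelihood test of edgeR 4.0.16 (R 4.3.3) was applied after filterByExpr (minimum count 10) and TMM scaling, with glmQLFit and glmQLFTest, and p-values were adjusted by the Benjamini-Hochberg method over all genes tested. The study's methods name both edgeR and DESeq2, and the limits on adjusted p and fold change follow them. SEs were the log2 fold change divided by the square root of F, and 95% intervals used the t distribution with the fit's degrees of freedom. Normalized counts are counts divided by the effective library size and multiplied by the mean of these sizes. Transcript shares were tested with diffSpliceDGE and Simes' method. A transcript's count holds the error of dividing reads among transcripts as well as counting error. A gene total still holds counting error and any error from reads shared with other genes.

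Of 17374 gene IDs, 17323 matched RefSeq on GRCm38.p6, the source of symbols, coordinates and promoters. GENCODE vM21 models, matched for 96.7% of genes (14842 by accession), gave exons, GC content and 3′ ends. The named genes were the 10 members and, in each pathway group, the gene with the smallest p. Gpr12 and the genes that share sequence with members were named after values were seen, as was Cdc27. The members and lists were chosen with earlier results of these data known. The tests were tested on simulated data. Alternatives were RLE factors, library size only, no filter, DESeq2 1.42.0, edgeR's exact test, limma 3.58.1 on log2(TPM + 1) and log2(TPM + 0.1), a replicate block, a GC offset and leaving out each library. Plots were made in Python 3.11.15 with matplotlib 3.10.9.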

Additional observations from a re-analysis of the deposited data

How the results depend on the processing

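The number of genes called in all, 1, was 0 with library size only, 0 with log2(TPM + 1), 0 with log2(TPM + 0.1), 0 with the GC offset, 3 without a filter, 4 with DESeq2 and 10 with edgeR's exact test, and 16 to 84 when 1 library was left out. The lone library is then assumed to vary like the other group. The share of higher estimates among genes at an unadjusted p under 0.05 was 78.2%, and 94.2% with library size only, 93.0% and 93.4% on the TPM scales, 63.5% with the GC offset, 68.6% with the replicate block, and 48.6% to 86.9% with 1 library left out, the lowest without irradiated library 1. Calls on members were 0 throughout, for genes, transcripts and transcript shares. With library size only, the log2 fold changes turned to 0.12 for Ccnb2, 0.0015 for Wee2 and 0.016 for Pde3a. With log2(TPM + 1) they turned to 0.016 for Ccnb1, 0.17 for Ccnb2, 0.075 for Wee2, 0.017 for Mos and 0.073 for Pde3a, and with log2(TPM + 0.1) to 0.016, 0.17, 0.075, 0.017 and 0.089. Mos turned to 0.11 without irradiated library 2, and ranged from -0.53 to 0.11 with 1 library left out. The other 5 members kept their direction under all 13 alternatives, with Fzr1 between 0.17 and 0.65, Gpr3 between 0.08 and 1.06 and Cdk1 between -0.55 and -0.09. The median of the pathway genes was 0.11 with library size only, 0.16 with log2(TPM + 1), 0.19 with log2(TPM + 0.1) and -0.075 to 0.045 with 1 library left out. Transcripts called rose from 0 to 248 with DESeq2 and 247 with edgeR's exact test. Genes called for transcript shares were 16, against 58 with the gene-level F test, 8 without a filter and 1 to 29 with 1 library left out. The replicate block gave 7 genes called and 3 for transcript shares, and it called no member. Deviations of libraries with the same number correlated at r = 0.08 across 12569 genes in the 2 pairs, and the sources used here do not say whether libraries with the same number came from the same experiment, so the numbers were not taken as pairs. Apart from the leave-one-out fits, where fewer samples enter, the cause of these changes was not tested. With 2 libraries a group and a common dispersion of 0.025 for genes and 0.47 for transcripts, the intervals of the members are wide, and that of Gpr3 covers 0.92-fold to 2.73-fold.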
